A study of Mus musculus with 8 samples.

Results

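PD-L1 and 7 further genes with which a tissue cell can restrain or engage lymphocytes were followed in mouse islets cultured with cytokines. The 8 genes were *Cd274*, *Pdcd1lg2*, *Il4i1*, *Ido1*, *Clec2d*, *Serpinb9*, *Cd40* and *Fas*, found by symbol in the gene lists of the libraries, where they were 8 of 30406 gene IDs held by all libraries. They were chosen by their known roles and by earlier results on the same cells. Their levels over the conditions in β-cells, α-cells, δ-cells, macrophages and endothelial cells are therefore given as a description. Fits and calls of them in these classes are not read as tests. Tests are given for other genes of the same pathways and for β-cells divided by a different transcript. Fits are also given for the 5 of the 8 genes that passed the filter in mesenchymal cells, with limits stated there.

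The islets came from male C57BL/6 mice (C57BL6/J in the study's methods) aged 12 to 16 weeks, with no genetic change, and those of 10 mice were pooled for each replicate. Each pool was divided over 4 cultures of 18 h, which were untreated, given IL-1β (10 U/mL) with IFN-γ (150 U/mL), given the same cytokines together with NMMA (2 mM), or given NMMA alone. NMMA, NG-monomethyl-L-arginine, blocks nitric oxide synthases, so the comparison of cytokines with and without it asks which changes depended on nitric oxide. There were 8 libraries, 2 for each condition, and a library of replicate 1 or 2 is named below by its condition and number.

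A T cell carries the inhibitory receptor PD-1, and engagement of PD-1 by PD-L1 (*Cd274*) or PD-L2 (*Pdcd1lg2*) on a neighbouring cell damps its response. *Il4i1* and *Ido1* encode enzymes that degrade aromatic amino acids, *Ido1* the tryptophan that dividing T cells need. *Clec2d* is a ligand of an inhibitory receptor of NK cells, *Serpinb9* is an intracellular inhibitor of granzyme B, *Cd40* is the receptor through which helper T cells license other cells, and *Fas* is the death receptor engaged by Fas ligand. Interferon-γ signalling reaches its target genes at GAS elements and at interferon-stimulated response elements (ISRE), the route best known for *Cd274*.

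The libraries held between 26549922 and 50731370 unique molecular identifiers (UMIs, 1 per captured transcript), and 10876 of 17426 barcodes (62.4%) were kept as cells. Clusters were named from marker genes and gave 6352 β-cells, 617 α-cells, 329 δ-cells, 324 macrophages, 284 endothelial cells and 221 mesenchymal cells, while 2482 cells (22.8%) stayed unnamed. All markers of the β-cell, α-cell, macrophage, endothelial and mesenchymal lists had UMIs in the class of that name in every condition, and 4 of 5 did in δ-cells, where *Nrn1* was at 0. Each library held 450 to 1665 β-cells but only 15 to 52 endothelial cells and 28 to 72 macrophages, and each cytokine library held 9 δ-cells, fewer than the 10 needed for a fit. No more than 2 barcodes were shared by any pair of libraries. Different clusters held most of a class with and without cytokines in β-cells, α-cells, δ-cells and endothelial cells, while macrophages and mesenchymal cells each formed 1 cluster.

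Levels are given as CPM (counts-per-million, the UMIs of the gene scaled to the total UMIs of the class in a library), and values are quoted in the order of replicate 1 and replicate 2. They are not compared between genes. Log2 changes come from a fit of the UMI sums with edgeR's TMM scaling, with n = 2 libraries per condition. Their standard error (SE) was calculated from the change and its F statistic. The conditions of a fit shared the estimate of the spread, so the SE is not the spread of the libraries of a condition. Scaling by the total UMIs in place of TMM moved the median of all genes between cytokines and no treatment by -0.22 in β-cells, -0.52 in α-cells, -0.11 in macrophages and -0.19 in endothelial cells on the log2 scale. Between cytokines without and with NMMA the shifts were -0.21, -0.40, -0.01 and 0.03 in the same order. Orders of CPM with and without NMMA include these shifts. Free RNA in the droplets was estimated from the insulin transcripts in each class that is not a β-cell.

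The regions around the transcription starts of 4 genes are shown because the genes differed in their response to nitric oxide and in the classes that carried them. They are RefSeq sequences of build GRCm38.p6 on the plus strand, 250 bases before to 50 after the start, printed 5′ to 3′, with capitals for the core of an ISRE (GAAANNGAA on either strand) or for a GAS element (TTCNNNGAA, which reads the same on both strands).
Cd274: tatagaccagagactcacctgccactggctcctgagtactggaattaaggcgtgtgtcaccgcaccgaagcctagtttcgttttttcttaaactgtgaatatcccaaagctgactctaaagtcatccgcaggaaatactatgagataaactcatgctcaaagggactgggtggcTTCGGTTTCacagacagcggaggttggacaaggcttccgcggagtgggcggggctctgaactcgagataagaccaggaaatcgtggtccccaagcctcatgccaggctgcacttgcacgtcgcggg
Clec2d: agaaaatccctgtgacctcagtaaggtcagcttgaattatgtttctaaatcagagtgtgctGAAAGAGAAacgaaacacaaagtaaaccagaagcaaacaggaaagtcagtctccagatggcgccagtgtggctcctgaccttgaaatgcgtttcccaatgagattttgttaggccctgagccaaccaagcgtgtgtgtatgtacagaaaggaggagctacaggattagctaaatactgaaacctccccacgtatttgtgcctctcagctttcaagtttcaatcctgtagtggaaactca
Fas: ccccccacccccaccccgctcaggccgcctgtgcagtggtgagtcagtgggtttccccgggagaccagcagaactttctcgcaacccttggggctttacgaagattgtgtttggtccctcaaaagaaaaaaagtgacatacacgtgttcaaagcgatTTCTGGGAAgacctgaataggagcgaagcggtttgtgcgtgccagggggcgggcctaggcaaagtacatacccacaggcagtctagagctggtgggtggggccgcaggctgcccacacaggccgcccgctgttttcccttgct
Il4i1: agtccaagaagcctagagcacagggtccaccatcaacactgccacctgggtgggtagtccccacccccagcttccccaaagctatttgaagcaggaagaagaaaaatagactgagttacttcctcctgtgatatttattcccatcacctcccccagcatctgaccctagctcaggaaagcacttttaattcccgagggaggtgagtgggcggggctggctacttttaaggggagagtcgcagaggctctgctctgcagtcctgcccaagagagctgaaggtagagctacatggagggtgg
The window of *Cd274* (chr19:29367188-29367487) held 1 ISRE core, 76 to 68 bases before the start, and that of *Clec2d* (chr6:129180365-129180664) held 1, 189 to 181 bases before it. The window of *Fas* (chr19:34290409-34290708) held 1 GAS element, 93 to 85 bases before the start, and that of *Il4i1* (chr7:44836038-44836337) held none of these letters. *Serpinb9* had an ISRE core 45 to 37 bases before its start, and *Pdcd1lg2* had only a κB motif. Of 32851 promoters of the same length in the table, 8.56% held the ISRE core, 8.30% the GAS element and 4.51% the κB motif, and a match describes the letters of the window and nothing more. Promoters of 6 of the 8 genes were matched, and those of *Ido1* and *Cd40* were not analysed here.

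On GRCm38 with the GENCODE M21 annotation, *Cd274* (chr19:29367455-29388095) and *Pdcd1lg2* (chr19:29410919-29471161) lie next to each other on the plus strand. *Il4i1* (chr7:44816387-44840809) shares its interval with *Nup62* on the same strand, and its RefSeq start lies inside the interval that GENCODE gives the gene, so reads of overlapping exons could be counted for either. *Ido1* lies on the minus strand at chr8:24584136-24597009, *Clec2d* at chr6:129180615-129186534, *Serpinb9* at chr13:33003250-33017957, *Cd40* at chr2:165055627-165072948 and *Fas* at chr19:34290666-34327772. *Clec2d* has 7 named relatives in the annotation and *Serpinb9* has 6, and reads shared with a near copy could be split among them.

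*Cd274* was higher with cytokines in all 6 classes. In β-cells it stood at 4.40 and 6.83 CPM untreated, 239 and 204 with cytokines, 281 and 309 with cytokines and NMMA, and 5.75 and 7.56 with NMMA alone. Both sets of cytokine-treated libraries lay above all others, and the libraries with NMMA lay above those with cytokines alone. The fitted log2 change from untreated was 5.54 (SE 0.23) with cytokines and 5.74 with cytokines and NMMA. All 7 of the 7 genes that could be fitted in β-cells were called higher with cytokines at an adjusted p of 0.05, against 46.2% of all genes called in either direction. Since the same contrast entered the choice of the genes, nothing is read from this count.

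In endothelial cells *Cd274* was at 2.01 and 7.29 CPM untreated and at 1003 and 1194 with cytokines, the highest mean level of the 6 classes. The libraries with cytokines and NMMA held 967 and 1213, and those with NMMA alone 5.16 and 7.41. The log2 change was 7.88 (SE 0.40). Of the cells behind these values, 97 untreated, 100 with NMMA alone and 1 with cytokines formed a cluster led by *Esm1*, *Emcn* and *Fabp4*, and the other 37 with cytokines and 49 with cytokines and NMMA formed another, led by *Ly6c1*, *Timp3* and *Ly6a*, with none of the 8 endothelial markers among its 10 leading genes. All 8 markers had UMIs in both conditions with cytokines, at sums of 5811 to 8967 CPM with cytokines and 10077 to 12008 untreated. In a coarser clustering these 86 cells fell into a cluster that stayed unnamed for its few UMIs, so every endothelial value with cytokines rests on the finer clustering. Markers of macrophages summed to between 2.57 and 4.66 CPM in endothelial cells with cytokines, but to between 15.8 and 1257 with cytokines and NMMA, where the endothelial markers themselves summed to between 5959 and 6609. Their part in the values of that condition was not tested.

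Macrophages were the only class in which untreated *Cd274* did not overlap the class next in order. Their libraries held 28.1 and 40.4 CPM untreated, 555 and 513 with cytokines, 496 and 490 with cytokines and NMMA, and 38.0 and 67.9 with NMMA alone. The log2 change of 4.01 (SE 0.32) was therefore smaller than in endothelial cells although the gene ended at the second highest level. With cytokines the classes followed each other without overlap, from endothelial cells through macrophages, δ-cells, β-cells and α-cells to mesenchymal cells, with mean levels of 1098, 534, 339, 221, 163 and 85.0 CPM.

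α-cells carried 8.32 and 10.2 CPM of *Cd274* untreated, 131 and 195 with cytokines, 132 and 201 with cytokines and NMMA, and 12.2 and 17.9 with NMMA alone. The free RNA of the first cytokine library would account for 31.1 of these 131 CPM. δ-cells held 5.44 and 12.3 untreated and 318 and 361 with cytokines, the latter in 9 cells per library. With cytokines and NMMA, where 58 and 33 δ-cells were kept, the level was 272 and 387, and the log2 change from untreated was 5.22 (SE 0.35). A fit with a minimum of 5 cells, chosen after seeing the data, gave a log2 change of 5.20 (SE 0.38) with cytokines.

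**Figure D1:**
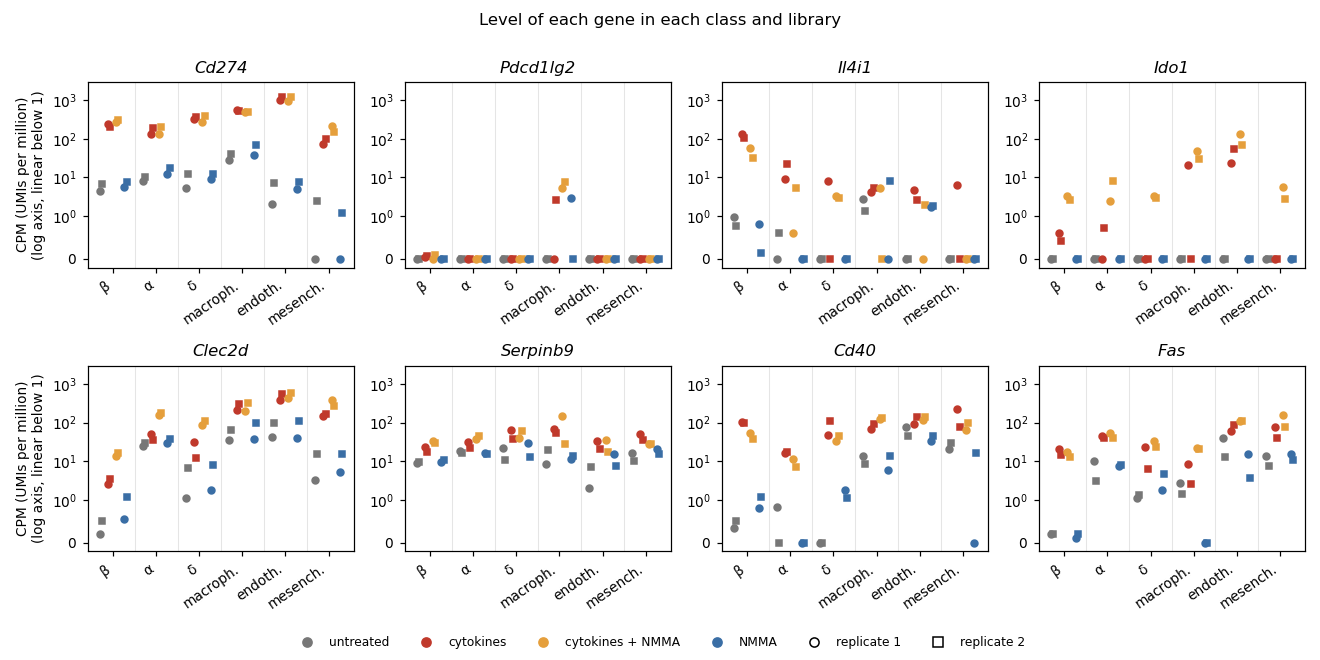
Level of each of the 8 genes in 6 cell classes, in CPM of the class, with 1 point per library. The vertical axis is logarithmic above 1 and linear below it, colours mark the 4 conditions, and circles and squares mark replicates 1 and 2. Cd274 with cytokines stands between 1003 and 1194 in endothelial cells and between 204 and 239 in β-cells.

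The cells of one class were compared at one depth, by drawing the same number of UMIs from each. At 9500 UMIs per cell, *Cd274* was seen in 76.7% of β-cells with cytokines in replicate 1 (95% Clopper-Pearson interval 74.1 to 79.1) and in 69.3% in replicate 2 (65.0 to 73.4). Untreated β-cells had a share of 4.51% and 6.41%. Adding NMMA gave shares of 80.4% and 78.5%, above both libraries without NMMA. These intervals cover counting error only.

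At a depth of 2500 UMIs, which allows the classes to be set side by side, 100% and 95.7% of endothelial cells with cytokines had a *Cd274* UMI. The shares were 84.0% and 58.6% of macrophages, 40.4% and 36.5% of β-cells, 26.8% and 38.1% of α-cells, and 11.1% and 22.7% of mesenchymal cells. As a check on free RNA, *Il4i1* was seen at this depth in 19.1% and 14.7% of β-cells and in 0% of 41 and 1.59% of 63 α-cells of the same libraries, whose median depths were 24665 and 27588 UMIs in β-cells and 16387 and 17672 in α-cells. By an approximate limit, which is not a Clopper-Pearson interval, 0 of 41 cells allows a share of up to 7.32% with a UMI at this depth. It does not bound the share of cells that carry the transcript below detection. The background of *Cd274* is higher than that of *Il4i1*, since free RNA in these α-cells was estimated at 31.1 and 36.5 CPM of *Cd274* and at 14.1 and 12.2 of *Il4i1*.

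*Pdcd1lg2*, the second PD-1 ligand, had few UMIs in any class. There were 3 in all β-cells, 2 with cytokines and 1 with cytokines and NMMA. Macrophages held none untreated, 1 with cytokines, 1 with NMMA alone and 6 when both were given. No UMI was counted in α-cells, δ-cells, endothelial or mesenchymal cells, and the gene passed the filter on low counts in no class.

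*Il4i1*, which encodes a secreted amino acid oxidase, was highest in β-cells among the 6 classes with cytokines and was lower there when nitric oxide synthesis was blocked. β-cells held 0.966 and 0.773 CPM untreated, 133 and 107 with cytokines, 56.2 and 32.7 with cytokines and NMMA, and 0.807 and 0.136 with NMMA alone. The libraries with cytokines alone lay above those with NMMA in both replicates. The log2 change was 7.27 (SE 0.54) from untreated, and 1.64 (SE 0.39) between cytokines without and with NMMA.

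The next class in order was α-cells, with 9.05 and 22.7 CPM of *Il4i1* with cytokines. Free RNA alone was estimated to give 14.1 and 12.2, so the first library lay below and the second above the estimate. Untreated α-cells held 1 UMI, and the ratio of the pooled levels was 51.1 with a counting interval of 8.63 to 2070. In no other class did *Il4i1* exceed 8.14 CPM in any library. At 9500 UMIs per cell, 37.3% and 34.2% of β-cells with cytokines had a UMI of *Il4i1*, and 23.2% and 14.7% did with cytokines and NMMA.

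*Ido1*, the tryptophan-degrading dioxygenase, was at 0 UMIs in all untreated cells of the 6 classes. Its level was highest in endothelial cells, with 23.3 and 53.9 CPM with cytokines and 132 and 71.0 with cytokines and NMMA. These 26 and 65 UMIs put the level at least 17.0-fold and at least 35.3-fold higher than untreated, where a floor of 3 UMIs over both libraries stands for the 0. The share of endothelial cells with a UMI at 4500 UMIs per cell was 6.67% and 21.7% with cytokines, and 33.3% and 32.3% with cytokines and NMMA.

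In β-cells *Ido1* was rare, with 25 UMIs in the cytokine libraries and 91 with cytokines and NMMA. The levels were 0.614 and 0.423 CPM with cytokines and 3.32 and 2.57 with cytokines and NMMA, and the log2 difference between them was -2.25 (SE 0.44). Both libraries with NMMA lay above both without it. Against the same floor of 3 UMIs, β-cells were at least 9.22-fold higher with cytokines and at least 51.2-fold higher with cytokines and NMMA. Free RNA was not estimated for β-cells. In α-cells with cytokines and NMMA it was estimated at 2.61 and 0.952 CPM of *Ido1*, beside levels of 2.39 and 7.95. The estimate uses all barcodes of a library, also those that the limits left out. In replicate 1 a single such barcode held 1464 of the 1694 UMIs of *Ido1*. It raised the first estimate, and no estimate without it was made. The part of free RNA in the β-cell levels of *Ido1* was not tested. Macrophages held 21.6 and 0 CPM with cytokines and 49.0 and 30.7 with cytokines and NMMA.

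*Clec2d*, the NK receptor ligand, had its highest mean level in endothelial cells in all 4 conditions. Macrophages came next, except with cytokines and NMMA, where mesenchymal cells did and the ranges of both overlapped. In the endocrine cells it was higher with cytokines and NMMA than with cytokines alone. In β-cells it went from 0.199 and 0.515 CPM untreated to 2.59 and 3.51 with cytokines and 13.5 and 16.3 with cytokines and NMMA. In α-cells the values were 24.1 and 29.3 untreated, 50.4 and 34.4 with cytokines and 159 and 179 with cytokines and NMMA. NMMA alone left 0.555 and 1.16 in β-cells and 29.3 and 36.6 in α-cells. The log2 difference between cytokines without and with NMMA was -2.08 (SE 0.31) in β-cells and -1.61 (SE 0.26) in α-cells.

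δ-cells followed the same order, with 1.09 and 6.85 CPM of *Clec2d* untreated, 31.8 and 12.5 with cytokines and 85.5 and 108 with cytokines and NMMA. In endothelial cells the level was 42.1 and 99.2 untreated, 396 and 549 with cytokines and 422 and 576 with cytokines and NMMA. In macrophages it was 36.5 and 64.0, then 207 and 298, then 202 and 326. In these last classes the ranges with and without NMMA overlapped, and the log2 differences were -0.11 and -0.05.

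**Figure D2:**
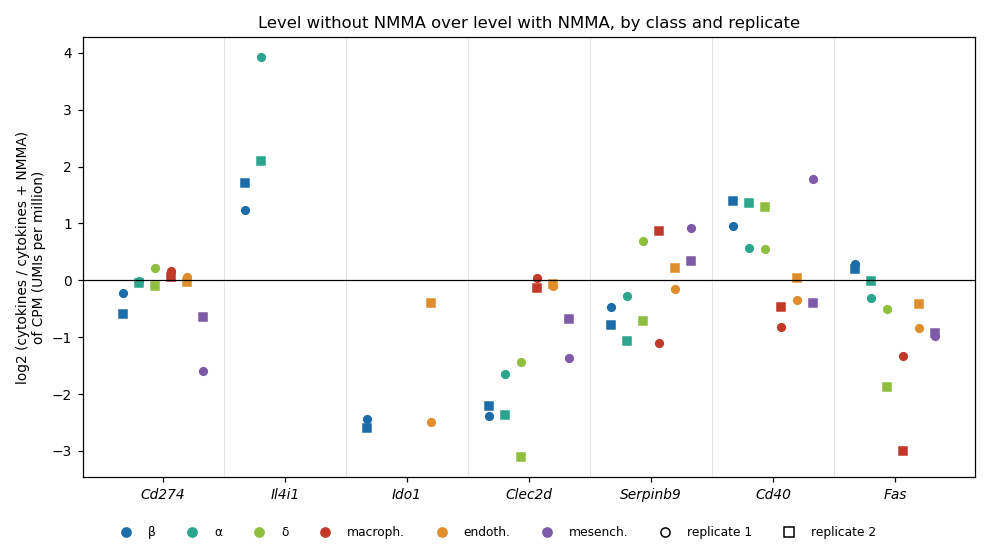
Log2 ratio of the level with cytokines to the level with cytokines and NMMA, for each gene, class and replicate, from CPM. Values above 0 mean a higher level with cytokines alone. Il4i1 in β-cells stands at 1.24 and 1.71 and Clec2d in β-cells at -2.38 and -2.22, and Pdcd1lg2 and classes with few UMIs of a gene are not plotted.

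*Cd40* was near 0 in untreated endocrine cells. With cytokines its level in β-cells overlapped those of δ-cells, endothelial and mesenchymal cells, while α-cells stayed low. β-cells held 0.341 and 0.515 CPM untreated, 106 and 98.6 with cytokines, 54.9 and 37.4 with cytokines and NMMA, and 0.807 and 1.16 with NMMA alone. The log2 change was 8.19 (SE 0.29) from untreated and 1.36 (SE 0.19) between cytokines without and with NMMA. As for *Il4i1*, both libraries with cytokines alone lay above both with NMMA. At 9500 UMIs per cell the share of β-cells with a UMI was 45.1% and 40.1% with cytokines, 34.4% and 21% with cytokines and NMMA, and 0.250% and 0.583% untreated.

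Endothelial cells already carried *Cd40* without treatment, at 76.2 and 45.2 CPM, and held 93.3 and 141 with cytokines and 118 and 138 with cytokines and NMMA. Macrophages had 14.0 and 8.35 untreated, 69.1 and 94.2 with cytokines and 123 and 130 with cytokines and NMMA, so that here the libraries with NMMA were the higher ones. With cytokines the ranges of mesenchymal, endothelial and β-cells overlapped, at means of 152, 117 and 102 CPM. α-cells had 16.8 and 17.6 CPM of *Cd40* with cytokines, where free RNA was estimated at 12.4 and 12.7, and were the lowest class. δ-cells held 0 UMIs untreated, 47.6 to 112 CPM with cytokines, from 24 UMIs, and 32.6 to 45.9 with cytokines and NMMA. The log2 ratio of cytokines without to with NMMA was above 0 in δ-cells (0.55 and 1.29) and α-cells (0.57 and 1.35) too.

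*Fas*, the death receptor, was at 0.199 and 0.193 CPM in untreated β-cells and at 21.1 and 14.9 with cytokines. With cytokines and NMMA it was at 17.2 and 13, and the ranges with and without NMMA overlapped. The log2 change was 6.68 (SE 0.33) from untreated and 0.47 (SE 0.21) between cytokines without and with NMMA. α-cells held 9.99 and 2.99 CPM untreated, 44.0 and 40.3 with cytokines and 54.3 and 40.8 with cytokines and NMMA, a log2 change with cytokines of 3.30 (SE 0.40). With cytokines, α-cells lay above β-cells in both libraries.

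In endothelial cells *Fas* was at 40.1 and 13.1 CPM untreated, 60.6 and 84.7 with cytokines and 109 and 112 with cytokines and NMMA. NMMA alone left 15.5 and 3.70. At 9500 UMIs per cell *Fas* was seen in 15.8% and 11.3% of β-cells with cytokines, in 0.125% and 0% of untreated ones, and in 15.9% and 9.26% with cytokines and NMMA.

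*Serpinb9*, which protects cells from the granzyme B of cytotoxic lymphocytes, had the smallest fitted changes with cytokines among the members in β-cells and α-cells. β-cells held 9.21 and 9.66 CPM untreated, 23.6 and 17.1 with cytokines, 32.7 and 29.3 with cytokines and NMMA, and 9.28 and 10.8 with NMMA alone. The log2 change with cytokines was 1.34 (SE 0.17) in β-cells and 1.08 (SE 0.33) in α-cells. The mean level went from 16.4 to 50.4 CPM in δ-cells, from 14.0 to 59.6 in macrophages and from 4.65 to 26.6 in endothelial cells. In macrophages with cytokines and NMMA the libraries were far apart, at 144 and 28.7.

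**Figure D3:**
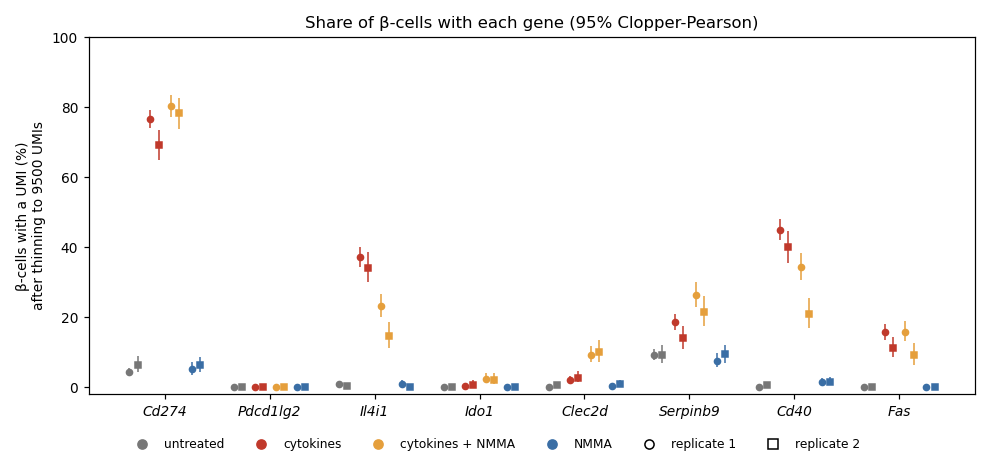
Share of β-cells, in percent, with at least 1 UMI of each gene after each cell was thinned to 9500 UMIs, by library, with 95% Clopper-Pearson intervals that cover counting error only. With cytokines, Cd274 was seen in 76.7% and 69.3% of cells, Cd40 in 45.1% and 40.1%, and Il4i1 in 37.3% and 34.2%.

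In α-cells all 6 of 6 fitted members were called higher with cytokines, against 22.0% of all genes called in either direction. Among them were *Il4i1* and *Cd40*, for which free RNA was estimated close to the level of the class, and β-cell markers in α-cells summed to between 44385 and 53846 CPM with cytokines, against 7971 to 8974 untreated. In macrophages 3 of 5 were, against 4.62%, and in endothelial cells 5 of 6, against 6.28%. Between cytokines without and with NMMA, 2 members were called higher (*Il4i1* and *Cd40*) and 2 lower (*Ido1* and *Clec2d*) in β-cells, against 19.5% of all genes, and 1 higher (*Il4i1*) and 1 lower (*Clec2d*) in α-cells, against 10.4%. In α-cells with cytokines and NMMA *Il4i1* was at 0.597 and 5.30 CPM, where free RNA was estimated at 2.79 and 4.28, and the part of β-cell RNA in the α-cell calls of *Il4i1* and *Cd40* was not tested. With the replicate block, *Fas* and *Serpinb9* were called too in β-cells, higher and lower with cytokines alone, and *Cd40* was called higher in α-cells. No member was called in macrophages, where 0.116% of all genes were, or in endothelial cells, where 0% of 7516 genes were. In endothelial cells 369 genes had an unadjusted p under 0.05 by edgeR, 3 genes passed by DESeq2, and 15 passed with a replicate block, so the 0 is the count of 1 fit. These counts and calls describe values that chose the genes, and nothing is read from them against the shares of all genes.

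The sign of some small differences made by NMMA depended on the scaling. In α-cells *Cd274* differed between cytokines without and with NMMA by 0.37 on the log2 scale with TMM scaling, but the mean of the replicate ratios of CPM was -0.03. For *Fas* in α-cells these values were 0.23 and -0.16.

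Mesenchymal cells were not among the classes used to choose the genes, but they came from the same cultures. There 5 of the 8 could be fitted, while *Pdcd1lg2*, *Il4i1* and *Ido1* had 0 to 2 UMIs per condition and no test. *Cd274*, *Clec2d* and *Fas* passed the filter on low counts only through the libraries where they were high. Their adjusted p are therefore a description. *Cd274* and *Clec2d* were higher with cytokines, and both and *Fas* were higher with cytokines and NMMA. *Cd274* was at 0 and 2.50 CPM untreated, 71.6 and 98.5 with cytokines, 215 and 154 with cytokines and NMMA, and 0 and 1.18 with NMMA alone. The 45 UMIs with cytokines against 1 UMI untreated gave a pooled ratio of 62.9 with a counting interval of 10.7 to 2539. With cytokines and NMMA the pooled ratio was 122, with an interval of 21.3 to 4850. These intervals cover counting error only. The edgeR fit of the library sums gave an adjusted p of 0.00159 with cytokines and 0.000365 with cytokines and NMMA. Markers of macrophages summed to between 19.5 and 26.1 CPM in these cells with cytokines and to between 5.52 and 264 with cytokines and NMMA. Ductal markers summed to between 2007 and 2819 CPM untreated, 58.6 and 220 with cytokines and 41.2 and 77.2 with cytokines and NMMA, and β-cell markers to between 5959 and 46168, 2433 and 3001, and 2950 and 4506. Mesenchymal markers summed to between 2623 and 6310 untreated and 1727 and 3130 with cytokines. The part of these cells or of their RNA in the changes was not tested.

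*Clec2d* in mesenchymal cells was at 3.36 and 15.0 CPM untreated, 150 and 171 with cytokines and 386 and 275 with cytokines and NMMA. The log2 change was 4.14 (SE 0.57, adjusted p = 0.00335, edgeR) with cytokines and 5.12 (SE 0.56, adjusted p = 0.00051) with cytokines and NMMA. Without untreated replicate 1 the first of these no longer passed (adjusted p = 0.0515), which left 1 member called. *Fas* was at 13.4 and 7.51 untreated, 78.1 and 40.6 with cytokines and 154 and 77.0 with cytokines and NMMA.

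The change of *Fas* in mesenchymal cells passed the test with cytokines and NMMA (log2 3.51, SE 0.59, adjusted p = 0.00861, edgeR) but not with cytokines alone (log2 2.57, SE 0.63, adjusted p = 0.0848). With the replicate block, which pairs the cultures of one islet pool, the latter gave an adjusted p of 0.0170. *Cd40* (log2 2.64, SE 0.75, adjusted p = 0.186) and *Serpinb9* (log2 1.79, adjusted p = 0.360) did not pass with cytokines. Of all genes in mesenchymal cells, 1.65% were called with cytokines and 1.83% with cytokines and NMMA. Untreated mesenchymal cells held 1 UMI of *Cd274*, 7 of *Clec2d* and 7 of *Fas*, against 45, 82 and 26 with cytokines. These genes therefore passed the filter on low counts only through the libraries where they were high. Their adjusted p are given with that limit and are not read as support for a change. No count of members is read against the shares of all genes.

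Within the cytokine-treated libraries, β-cells were divided by whether they held a UMI of *Nos2*, the inducible nitric oxide synthase, after thinning to one depth. Cells with *Nos2* had more *Cd274*, *Il4i1*, *Cd40* and *Fas*. The share of cells with *Nos2* was 47.2% and 42.8% with cytokines and 64.5% and 59.7% with cytokines and NMMA. The sums of cells with and without it were compared within the 4 libraries by edgeR, and 6.65% of 9160 genes were called.

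*Il4i1* was seen in 49.4% of β-cells with *Nos2* and 26.4% of those without it in the first cytokine library, and in 50.7% and 21.9% in the second. The log2 difference was 1.71 (SE 0.12, adjusted p = 1.69e-09). *Cd40* was seen in 58.6% against 33.0% and in 60.5% against 24.8%, a log2 difference of 1.54 (SE 0.11, adjusted p = 1.69e-09). Under cytokines and NMMA the same order held, with *Cd40* in 42.0% against 20.6% and 28.8% against 9.46% of cells.

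*Fas* differed by 0.83 (SE 0.16, adjusted p = 0.00136), with shares of 19.1% against 12.8% and 15.6% against 8.03% with cytokines. *Cd274* differed by 0.50 (SE 0.09, adjusted p = 0.000445), and its share of cells was almost equal in the first cytokine library, at 77.5% and 76.0%, but not in the second, at 77.6% and 63.1%. Under cytokines and NMMA it was 87.2% against 68.2% and 90.9% against 60.1%. *Clec2d* (log2 0.87, adjusted p = 0.0528) and *Serpinb9* (log2 0.35, adjusted p = 0.216) did not pass, and *Clec2d* passed when the cells were not thinned (adjusted p = 0.000544) or without cytokines and NMMA replicate 1 (adjusted p = 0.0426).

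**Figure D4:**
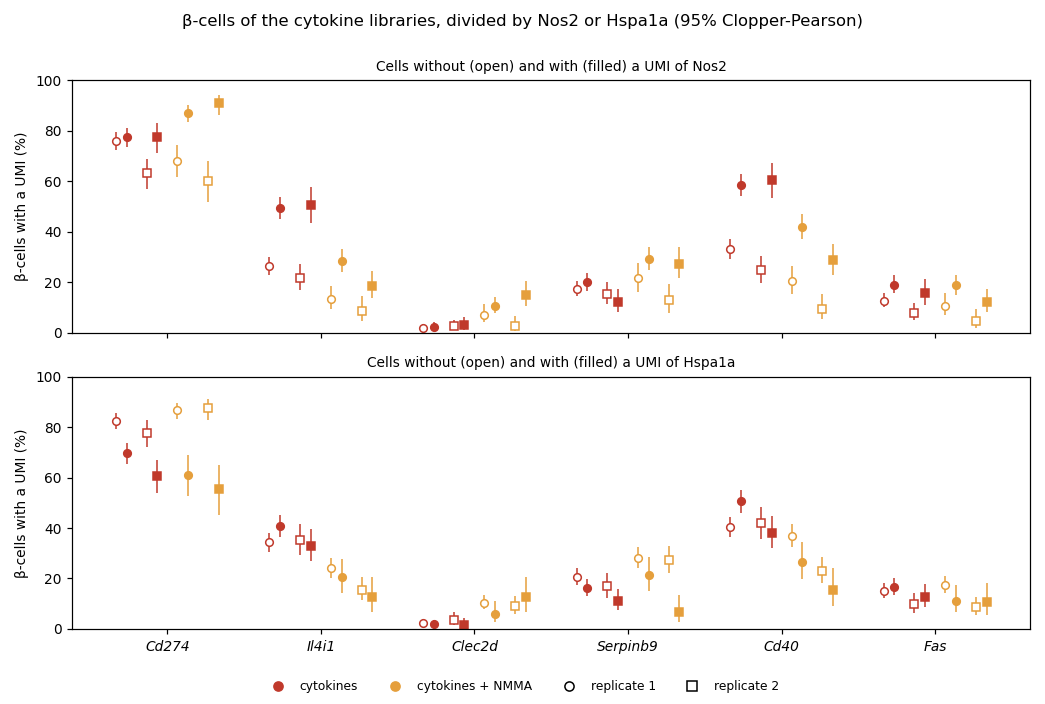
Share of β-cells, in percent, with a UMI of each of 6 genes after the cells were thinned to one depth. Open symbols are cells without and filled symbols cells with a UMI of Nos2 (top row) or Hspa1a (bottom row), in the 4 cytokine-treated libraries. The 95% Clopper-Pearson intervals cover counting error only. Il4i1 and Cd40 stand higher in cells with Nos2 in all 4 libraries, and Cd274 stands lower in cells with Hspa1a in all 4.

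The same cells were divided by *Hspa1a*, an inducible heat shock gene. *Cd274* was lower where *Hspa1a* was present. It was seen in 69.6% of cells with *Hspa1a* against 82.5% without in the first cytokine library and in 60.6% against 77.8% in the second. Under cytokines and NMMA the shares were 60.9% against 86.6% and 55.3% against 87.5%. The log2 difference was -0.58 (SE 0.09, adjusted p = 0.000277, edgeR), and 7.97% of 9114 genes were called.

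*Il4i1* was higher in the cells with *Hspa1a* (log2 0.52, SE 0.13, adjusted p = 0.0178), but only in some of the fits. Its share of cells was 40.9% against 34.3% and 33.1% against 35.4% with cytokines. Under cytokines and NMMA the share was 20.5% against 24.1% and 12.6% against 15.5%, lower in the cells with *Hspa1a* in both libraries. The call was lost without cytokines replicate 1 (adjusted p = 0.273), without cytokines replicate 2 (0.0831), without thinning (0.297), with 3 or more UMIs of *Hspa1a* (0.286) and with scaling by total UMIs (0.158). *Cd40*, *Fas*, *Clec2d* and *Serpinb9* gave adjusted p of 0.503, 0.728, 0.996 and 0.230. Scaling by total UMIs moved the median of all genes in this division by -0.27 and the difference of *Cd274* to -0.85.

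Most β-cells with cytokines held at least 1 of the 8 transcripts. At 9500 UMIs per cell, 91.8% and 84.6% of them did with cytokines and 90.6% and 85.0% with cytokines and NMMA, against 14.7% and 16.3% untreated and 15.1% and 17.6% with NMMA alone. At least 3 different members were seen in 30.8% and 25.9% of cells with cytokines and in 0% of untreated cells. Among cells of one library, *Cd40* was seen more often in cells with *Il4i1* than in cells without it, with odds ratios of 2.41 and 4.09 with cytokines and 1.69 and 1.58 with cytokines and NMMA. In the first cytokine library 58.7% of cells with *Il4i1* had *Cd40*, against 37.0% of cells without it. Of the pairs counted, this one had the highest odds ratio in both libraries with cytokines. With cytokines and NMMA other pairs stood higher, among them *Cd274* and *Fas* (2.10 and 3.93) and *Il4i1* and *Fas* (1.72 and 3.81). For *Serpinb9* and *Cd40* the odds ratios were 0.799 and 0.817 with cytokines and 0.832 and 1.39 with cytokines and NMMA. Cells of the same library share its depth and free RNA.

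Over 46 sums of a class and a library, the genes with the pattern most like that of each member were found by Pearson's r among 10600 genes. Those named here were *Stat2* (0.937), *Parp14* (0.935) and *Gbp5* (0.933) for *Cd274*, and *Ifi35* (0.884), *Samhd1* and *Rnf213* for *Clec2d*. For *Ido1* they were *Trafd1* (0.820), *Ifi208* and *Parp9*, for *Cd40* *Tmem140* (0.876) and *Rnf19b*, for *Fas* *Znrf1* (0.894), *C1s1* and *Mlkl*, for *Serpinb9* *Serpina3f* (0.757), *Acod1* and *Psme2*, and for *Pdcd1lg2*, with its few UMIs, *Ccl12* (0.788). *Il4i1* had no close neighbour, and *Ddit3* (0.689), a gene of the stress response, *Itpk1* (0.673) and *S100a9* (0.622) came first. The sums share libraries and cell classes, so the values are a description.

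Genes of the same pathways, 100 in 6 lists that were drawn up with earlier results known, were tested across all genes. In β-cells 55 could be fitted, of which 29 were higher and 5 lower with cytokines, 34 in all, against 46.2% of all genes called in either direction. Their median log2 change was 0.75, beside 0.00 for all genes. Since the lists were drawn up with these results known, nothing is read from that difference. The same holds for every count of list genes set beside a share of all genes, here and in the other classes. Of the other B7 family and checkpoint ligands 7 of 10 were higher and none lower. *Lgals9*, which encodes the TIM-3 ligand galectin-9, rose by 4.70 (SE 0.33, adjusted p = 1.91e-05). *Pvr*, the poliovirus receptor bound by TIGIT, rose by 2.35 (SE 0.38, adjusted p = 0.00115), and *Fgl1*, a ligand of LAG-3, by 1.73 (adjusted p = 0.00207). *Cd47*, the signal that restrains phagocytes, and *Nectin2* rose by 0.75 (adjusted p = 0.00304) and 0.81 (adjusted p = 0.00308).

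Of the enzymes and transporters of tryptophan and arginine, 3 of 9 were higher and 2 lower. *Ido2* rose by 5.60 (SE 1.29, adjusted p = 0.00838), and the subunits of the large neutral amino acid transporter, *Slc3a2* and *Slc7a5*, rose by 1.40 (adjusted p = 0.00114) and 0.65 (adjusted p = 0.00275). *Arg1*, arginase 1, fell by 1.97 (SE 0.41, adjusted p = 0.00469), and *Kyat3* fell by 1.44 (adjusted p = 0.00641). Of 3 ligands read by NK and innate-like T cells, the nonclassical class I gene *H2-T23* rose by 2.87 (SE 0.28, adjusted p = 0.0001) and *Mr1* fell by 1.12 (adjusted p = 0.0178).

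Of the serpins and other protease inhibitors 6 of 8 were higher. *Serpina3f* rose by 9.94 (SE 0.41, adjusted p = 2.76e-06) and *Serpina3n* by 4.61 (adjusted p = 3.77e-05), a size that *Serpinb9* itself did not have. In the family of TNF receptors, ligands and adaptors 12 of 23 were higher and 2 lower. *Tnfsf10*, which encodes the death ligand TRAIL, rose by 3.26 (SE 0.22, adjusted p = 1.41e-05) and *Tnfrsf12a*, the TWEAK receptor, by 2.63 (SE 0.17, adjusted p = 1.14e-05). The death domain kinase *Ripk1* rose by 1.58 (adjusted p = 3.12e-05).

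NMMA moved 15 of these 55 genes in β-cells, 4 higher with cytokines alone and 11 lower, against 19.5% of all genes called. *Tnfrsf12a* (log2 1.34, SE 0.16, adjusted p = 0.00231) and *Ripk1* (0.73, adjusted p = 0.00683) were higher without NMMA, the direction of *Il4i1* and *Cd40*. *Tnfsf10* (-1.33, SE 0.20, adjusted p = 0.0041), *Nectin2* (-0.90, adjusted p = 0.00683), *Ido2* (-2.03, adjusted p = 0.0496), *Serpina3f* (-0.96, adjusted p = 0.0138) and *Cflar* (-0.53, adjusted p = 0.0131), an inhibitor of caspase-8 activation, were lower without NMMA, the direction of *Ido1* and *Clec2d*. The count was 26 with the replicate block. It was 6 without cytokines replicate 1, 5 without cytokines and NMMA replicate 1 and 8 without cytokines and NMMA replicate 2. NMMA alone changed none of them by edgeR, where 3 had an unadjusted p under 0.05. Of all 12774 genes it changed 0% by edgeR, where 931 had an unadjusted p under 0.05, but 9 genes by DESeq2 and 450 with the replicate block, among the latter *Tnfrsf12a* of these lists (log2 0.76, adjusted p = 0.00589 with the block and 0.439 without it).

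In α-cells 14 of 35 fitted list genes were higher with cytokines and 1 lower, against 22.0% of all genes called. *Pvr* rose by 4.22 and *H2-T23* by 2.28 (adjusted p = 1.01e-06), and *Arg1* fell by 2.34 (adjusted p = 0.000407). Between cytokines without and with NMMA 3 were higher and 4 lower, against 10.4% of all genes, a count of 7 that was 3 without cytokines replicate 1 and 4 without cytokines and NMMA replicate 2. *Tnfrsf12a* (log2 1.47) was higher without NMMA and *Tnfsf10* (-1.64) lower, the directions seen in β-cells. The fraction of free RNA estimated from insulin in α-cells was 0.0184 and 0.0203 untreated and 0.124 and 0.151 with cytokines. With cytokines and NMMA it was 0.0625 and 0.169. The part of β-cell RNA in the α-cell calls of list genes was not tested.

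In macrophages 7 of 30 list genes were higher with cytokines and 1 lower, against 4.62% of all genes called, a count of 8 that was 5 without untreated replicate 1, cytokines replicate 1 or cytokines replicate 2 and 4 without untreated replicate 2. The costimulatory ligand *Cd86* rose by 1.80 (SE 0.25, adjusted p = 0.000443), *H2-T23* by 2.22 (adjusted p = 2.04e-05) and *Tnf* by 1.74 (adjusted p = 0.0297). In endothelial cells 8 of 28 were higher, against 6.28% of all genes, among them *H2-T23* (4.09, adjusted p = 2.74e-07), *Pvr* (2.06, adjusted p = 0.000693), *Lgals9* (2.78, adjusted p = 0.000993) and *Tnfsf10* (2.70, adjusted p = 0.00259). This count was 4 without untreated replicate 1 or cytokines replicate 2 and 5 without untreated replicate 2. Between cytokines without and with NMMA, no list gene was called by edgeR in macrophages, where 2 had an unadjusted p under 0.05 and 3 passed with the replicate block, or in endothelial cells, where 0 had an unadjusted p under 0.05. In mesenchymal cells 1 of 19 was higher, against 1.65% of all genes, *H2-T23* (4.48, adjusted p = 0.000587). As in β-cells, nothing is read from these counts against the shares of all genes.

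The lymphocyte receptors for these ligands were at or near 0 in most classes. *Pdcd1*, which encodes PD-1, had 2 UMIs in 1 of 324 macrophages and none in the other classes. In β-cells 2 of 21 receptor genes could be fitted, and neither passed with cytokines (edgeR, 0 with an unadjusted p under 0.05). *Klrb1b*, the receptor of *Clec2d*, had 47 UMIs in 31 of 324 macrophages. *Cd40lg* had none, and *Fasl* had 3 UMIs in 3 β-cells. Of 8 markers of T and NK cells none had a UMI in β-cells, α-cells, δ-cells, endothelial or mesenchymal cells, and only *Cd4* did in macrophages.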

How the data were processed

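Single-cell RNA-seq of pooled mouse islets was deposited as 8 droplet libraries, for which the authors' processing notes name Cell Ranger and the mm10 build. The deposited values are raw UMI counts per gene and barcode, with no normalization. Following the limits in the study's methods, barcodes with at least 200 genes, at most 5500 (replicate 1) or 6500 (replicate 2) genes and at most 10% mitochondrial UMIs were kept. Gene lists of 31053 and 32285 genes were joined by gene ID, and 597 of the 30406 shared IDs had another symbol in the second list. Counts were clustered in scanpy 1.11.5 (2000 variable genes, 30 components, 20 neighbours, resolution 1, 21 clusters), after the 3 members among the variable genes were taken out, and clusters were named from marker lists. Scrublet was run in scanpy, and the barcodes with the highest scores in each library were marked as doublets up to an assumed rate of 0.8% per 1000 barcodes. The number marked, 128 barcodes (1.18%), follows from that rate, and these barcodes were kept.

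UMIs were summed per class and library, where a class had at least 10 cells, and fitted across all genes with edgeR 4.0.16 (quasi-likelihood, TMM, filterByExpr, 4 conditions in one fit, R 4.3.3), with Benjamini-Hochberg adjustment over all genes and a threshold of 0.05. DESeq2 1.42.0 was an alternative. The scripts were tested on simulated data. A level of 0 was bounded by a floor of 3 UMIs over the group. The members, marker lists and pathway lists were chosen with earlier results of these data known, and the genes named are all 8 members, the receptors of the ligands, and at most 5 called genes per list with the smallest adjusted p in β-cells and 2 in other classes. The genes with the pattern most like that of each member were also named, and 1 of them is not reported here. Replicate numbers pair the cultures of one islet pool: deviations of same-numbered libraries from their condition's mean correlated at r of 0.657 to 0.752 in β-cells, 0.267 to 0.439 in α-cells, 0.326 to 0.387 in δ-cells, 0.358 to 0.474 in macrophages, 0.225 to 0.398 in endothelial cells and 0.0809 to 0.392 in mesenchymal cells. The replicate block was an alternative to the main fit.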

Additional observations from a re-analysis of the deposited data

Results flagged for a closer look

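Differences between cytokines without and with NMMA ran in opposite directions in both replicates of a pair of classes for 4 members, given here as mean log2 ratios of the CPM, and none of these differences was tested. *Cd40* stood at 1.18 in β-cells and -0.65 in macrophages, 1.82 apart. *Fas* stood at 0.25 in β-cells and -2.17 in macrophages, 2.42 apart, the macrophage value resting on 5 UMIs with cytokines and 19 with cytokines and NMMA. *Cd274* stood at 0.11 in macrophages and -1.12 in mesenchymal cells, 1.23 apart. *Serpinb9* stood at 0.63 in mesenchymal cells and -0.67 in α-cells, 1.30 apart.

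A barcode that the limits left out held most of the *Ido1* of the library with cytokines and NMMA of replicate 1. It had 1464 of the 1694 UMIs of *Ido1*, and the barcode next in order had 27. Its 7704 genes put it above the gene maximum, and its 137340 UMIs were led by the digestive enzyme genes *Ctrb1* (28076 UMIs), *Prss2* (3785) and *Cela1* (2804) and by *Clu* (5253), with 327 UMIs of *Krt18*, 102 of *Krt19*, 18 of *Ins1* and 73 of *Ins2*. *Cd274* had 10 UMIs there, *Clec2d* 31, *Serpinb9* 59 and *Fas* 9, while *Cd40* and *Il4i1* had none. No untreated barcode above the gene maximum had a UMI of *Ido1*.

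Cells outside the 6 classes carried the members with cytokines too. Pancreatic polypeptide cells had 52.6 CPM of *Cd274* with cytokines, 10 UMIs in 22 cells, against 9.08 untreated. Unnamed cells had 159 CPM of *Cd274* with cytokines against 9.88 untreated, 114 of *Il4i1* against 0.482, and 109 of *Cd40* against 0.723. With cytokines, 28 of the 47 UMIs of *Il4i1* and 31 of the 45 of *Cd40* lay in 5 of these cells, from a cluster led by immunoglobulin genes.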

How the results depend on the processing

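Over 484 alternative values of the members' log2 changes with cytokines, 428 moved by less than the spread of the replicates, 56 by more, and none was below 0. The β-cell change of *Cd274* ran from 5.27 to 5.83. Some ranges in other classes were wider, with 7.36 to 9.10 for *Cd274* in endothelial cells and 5.08 to 7.89 in mesenchymal cells. That of *Cd40* in α-cells was 4.74 to 7.93. Counts of called genes moved more. Between cytokines without and with NMMA, the β-cell count of 15 was 26 with the replicate block, the α-cell count of 7 was 4 with only these conditions in the fit, and the macrophage count of 0 was 1 without the filter on low counts and 3 with the replicate block. With cytokines against no treatment, the macrophage count of 8 was 5 with DESeq2 and 5 with only these conditions in the fit, and the mesenchymal count of 2 members was 4 without the filter. In cells divided by *Hspa1a* the count of 2 was 1 without thinning and 1 with 3 or more UMIs. Apart from *Fas* in mesenchymal cells, the block changed no call of a member there. The causes of these shifts were not tested.

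Leaving out 1 library gave 25 to 34 list genes in β-cells, 10 to 14 in α-cells, 4 to 7 in macrophages and 4 to 8 in endothelial cells with cytokines, where a lone library was assumed to vary like the other conditions. For cytokines without and with NMMA the ranges were 5 to 17, 3 to 6, 0 to 0 and 0 to 1, the last without cytokines replicate 1. Members called were 1 to 2 and 2 to 3 in mesenchymal cells, 4 to 5 for *Nos2* and 1 to 2 for *Hspa1a*. With 2 libraries per condition and 15 to 52 endothelial cells or 9 δ-cells in a library, small differences could be missed. The smallest difference that could be detected was not estimated. With the minimum of 10 cells, fits of δ-cells with cytokines were not run in the main clustering for want of cells. Neither were fits of endothelial cells with cytokines in the coarser clustering.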

Other observations

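An unnamed cluster led by the immunoglobulin genes *Igkc* and *Ighm* held 41 cells, 31 of them with NMMA alone, 5 with cytokines, 3 with cytokines and NMMA and 2 untreated. Its few cells in the cytokine conditions carried much *Il4i1*, with 28 UMIs in the 5 cells with cytokines (502 CPM) and 68 in the 3 cells with cytokines and NMMA (1787 CPM). Those 5 cells held 28 of the 47 UMIs of *Il4i1* and 31 of the 45 UMIs of *Cd40* in the unnamed cells with cytokines. *Ido1* had 29 UMIs in the 3 cells with cytokines and NMMA. The cells are too few for a comparison of conditions.

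Barcodes above the gene maximum, 103 to 301 in each cytokine-treated library, had levels of *Cd274* between 285 and 321 CPM, against 226 to 326 in the kept barcodes of all classes together. Barcodes above the mitochondrial maximum had 192 to 224. *Il4i1* was at 64.8 and 41.9 above the gene maximum with cytokines, at 81.6 and 94.6 above the mitochondrial maximum and at 124 and 93.5 in the kept barcodes. With cytokines and NMMA these levels were 35.4 and 22.1, then 55.0 and 51.8, then 48.9 and 26.0.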
